A study of Homo sapiens with 12 samples.

Results

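The microRNA gene loci of the array were taken as all probe sets whose only gene symbol was a numbered MIR symbol or a MIRLET7 symbol, leaving out host transcripts (symbols ending in HG) and antisense symbols. The rule gave 1506 probe sets for 1470 symbols, out of 135750 probe sets on the array and 36176 with exactly 1 gene symbol. RefSeq lists all 1506 as genes of type miRNA. Another 332 probe sets held a microRNA symbol together with other symbols and stayed outside the rule.

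The samples were MIO-M1 cells, a human Müller glia cell line, used to model myotonic dystrophy type 1 (DM1). In DM1 an expanded CTG repeat in the DMPK gene is transcribed into RNA that collects in the nucleus. All cells carried the Tet3G transactivator under a CMV promoter, from a selected clone, and a DMPK minigene of exons 11 to 15 behind the TRE3G promoter, which doxycycline (Dox) switches on. The 4 groups of 3 biological replicates were MIO-M1-CTG(648) cells with Dox, MIO-M1-CTG(648) cells without Dox, MIO-M1-CTG(0) cells with Dox and MIO-M1-CTG(0) cells without Dox. The number in brackets is the count of CTG repeats in the minigene, Dox was given at 1 μg/ml for 8 days, and both lines had been selected with G418 and puromycin. Each repeat length was 1 line, so that repeat, insertion site and line cannot be told apart in comparisons between lines.

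MicroRNAs are short RNAs that base-pair with messenger RNAs and lower their translation and stability. They are cut from longer primary transcripts, first in the nucleus by DROSHA with DGCR8 and then in the cytoplasm by DICER1, and act within Argonaute proteins. Bases 2 to 8 of the mature strand, called the seed, choose most targets, so that microRNAs with a common seed form a family. Many microRNA genes lie in introns of other genes or in clusters copied as 1 transcript. In muscle and heart, DM1 has been linked to altered levels of several microRNAs, and in the mouse retina miR-9, miR-124 and let-7 are known to act in Müller glia.

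The array, Clariom D Human, was hybridised with labelled total RNA purified on columns (RNeasy Mini kit). How much RNA as short as a mature microRNA or its precursor came through the columns was not tested. Its signal at a microRNA locus cannot be told apart as primary, precursor, host or mature RNA. A change at a locus is therefore not shown to be a change of the mature microRNA. Signals are log2 values with 2 decimals. Array medians were 4.24 to 4.32, and all values lay between 1.56 and 19.62. Of the cell type markers, 8 of 12 Müller glia probe sets were at least 1 above the array median. VIM averaged 17.2 in Dox-induced CTG(648) cells and 17.4 in non-induced CTG(648) cells, by its brighter probe set. Group means were 14.49 to 14.81 for GLUL, 13.55 to 14.08 for SOX9, 12.42 to 13.27 for SOX2 and 11.01 to 13.49 for SLC1A3. RLBP1 and AQP4 were at background, with group means from 2.70 to 2.89 and from 3.98 to 4.25, as was NES (4.53 to 4.72). Of 3 photoreceptor probe sets 0 were above background, of 3 neuron ones 1 (SNAP25 passed between the Dox-induced lines) and of 4 of microglia and blood 2. Of the Müller glia probe sets, 1 (SLC1A3) was higher with Dox in CTG(648) cells by the threshold given below, where 0.965% of all probe sets were. Between the Dox-induced lines 3 were higher (CD44, EGFR and SOX2) and 1 lower (SLC1A3, log2 fold change -1.77), where 5.37% and 4.51% of all were. Between the non-induced lines 2 were higher (CD44 and SOX2) and 1 lower (SLC1A3, -1.92), where 4.95% and 5.19% of all were. Arrays of 1 group correlated at 0.992 to 0.994 over all probe sets with 1 symbol and at 0.958 to 0.969 over the microRNA loci.

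The mature sequences of the loci that the comparisons turned on are printed 5′ to 3′ from RefSeq (GRCh38.p14), with the seed in capitals. The first set belongs to loci past the threshold in both comparisons of Dox-induced CTG(648) cells, together with relatives that share a seed or sequence. RefSeq sequences were matched to 1369 of the 1506 probe sets.
hsa-miR-103a-3p: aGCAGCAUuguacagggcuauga
hsa-miR-103b: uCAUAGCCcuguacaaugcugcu
hsa-miR-4310: gCAGCAUUcauguccc
hsa-miR-222-3p: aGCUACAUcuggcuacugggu
hsa-miR-298: aGCAGAAGcagggagguucuccca
hsa-miR-4275: cCAAUUACcacuucuuu
hsa-miR-4262: gACAUUCAgacuaccug
hsa-miR-181b-5p: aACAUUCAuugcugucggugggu
hsa-miR-569: aGUUAAUGaauccuggaaagu
hsa-miR-548x-5p: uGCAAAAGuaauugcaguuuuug
hsa-miR-635: aCUUGGGCacugaaacaaugucc
hsa-miR-448: uUGCAUAUguaggaugucccau
The second set shows miR-4500, whose locus differed between the Dox-induced lines, beside let-7c-5p and miR-98-5p, which share its let-7 seed and whose loci passed in no comparison. Its last 3 sequences come from loci of the imprinted 14q32 cluster that differed between the lines.
hsa-miR-4500: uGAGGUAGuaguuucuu
hsa-let-7c-5p: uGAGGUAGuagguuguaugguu
hsa-miR-98-5p: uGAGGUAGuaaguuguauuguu
hsa-miR-377-3p: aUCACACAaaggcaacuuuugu
hsa-miR-539-5p: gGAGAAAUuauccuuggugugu
hsa-miR-379-5p: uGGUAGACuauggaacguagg

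Several of these sequences are related. miR-103a-3p and miR-103b are exact reverse complements, read from opposite strands of the same bases on chromosome 5 (168560904 to 168560926). miR-4310 begins with the run of 8 bases that miR-103a-3p has from base 2, so their seeds are offset by 1 base. miR-4262 has the seed of the miR-181 family. The 5p strands of MIR548X and MIR548G are identical over all 23 bases, so a signal at either locus cannot be assigned to it from the mature sequence alone.

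Most microRNA loci gave signals near the array's background. The median signal of the 1506 loci was 4.12 to 4.29 over the 12 arrays, close to the array medians, against 5.12 to 5.21 for all probe sets with 1 symbol. A group mean of at least 1 above the array median was taken as above background. By that limit 24.8% of the loci were above background in Dox-induced CTG(648) cells, 25.1% in non-induced CTG(648) cells, 24.7% in Dox-induced CTG(0) cells and 24.0% in non-induced CTG(0) cells. The same shares over all probe sets with 1 symbol were 47.7%, 47.4%, 47.5% and 47.9%. In all, 433 loci were above background in at least 1 group and 316 in all 4. The spread between replicates was wider at the loci, with a median within-group SD of 0.30 against 0.25.

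**Figure D1:**
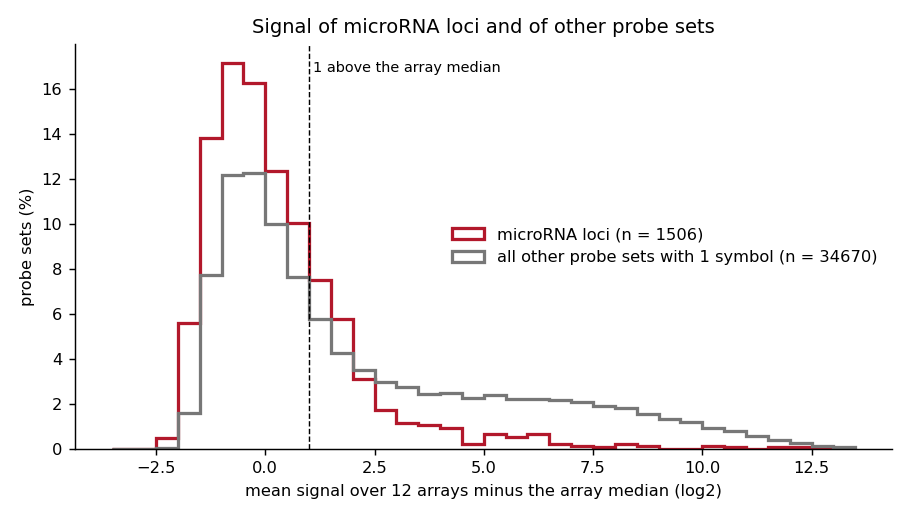
Distribution of the mean signal over 12 arrays minus the array median (log2, x axis) as the share of probe sets (%, y axis), for the 1506 microRNA loci (red) and the 34670 other probe sets with 1 symbol (grey). The dashed line is the limit of 1 above the array median, and most of the red curve lies left of it.

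The brightest loci did not differ past the threshold between Dox-induced CTG(648) cells and either comparison group. The 10 probe sets with the highest mean, from 12.53 to 16.73, were those of MIR548N, MIR4426 (2 probe sets), MIR6088, MIR3654, MIR3135A, MIR6746, MIR663A, MIR3135B and MIR4737. Of these, 3 had a probe set placed on another chromosome than the RefSeq gene, those of MIR548N, MIR663A and the second of MIR4426, and that of MIR3654 matched RefSeq by symbol only, so these 4 symbols are uncertain. The first MIR4426 probe set had 15.90, 15.91 and 15.60 in Dox-induced CTG(648) cells, against 15.53, 15.89 and 15.77 in non-induced CTG(648) cells. It had 16.12, 16.12 and 15.92 in Dox-induced CTG(0) cells. Its ranges overlapped within the CTG(648) line, and its highest Dox-induced CTG(648) array was just below its lowest Dox-induced CTG(0) array. Signal rose weakly with the GC content of the hairpin (Pearson r = 0.16 across 1187 loci, which are not independent). Above background in at least 1 group were 37.4% of loci among the 297 loci with the highest GC content and 19.4% among the 299 with the lowest.

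A locus was taken as past the threshold at a log2 fold change over 0.5 in size and an unadjusted p under 0.005 from limma, the limits of the study design. The p-values given as adjusted were corrected by the Benjamini-Hochberg method across the 36176 probe sets. Dox in CTG(648) cells (contrast A) took 14 loci higher and 6 lower, 20 of 1506 or 1.33%, where 1.8% of all probe sets passed (0.965% higher and 0.838% lower). None of the 20 was also past the threshold with Dox in CTG(0) cells, so none was removed as a Dox response (1.73% of all probe sets remained). All 20 had groups that did not overlap, as had 17% of all probe sets. The threshold itself favours such loci, so this is no further evidence. Dox-induced CTG(648) against Dox-induced CTG(0) cells (contrast B) gave 14 higher and 15 lower, 29 loci or 1.93%, against a background of 9.87% (5.37% higher and 4.51% lower). Removing the 3 loci that also differed between the non-induced lines left 26, where 4.2% of all probe sets remained. With an adjusted p under 0.05 in place of the unadjusted one, 4 loci passed in contrast A (0.406% of all probe sets) and 29 in contrast B (9.82%).

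**Figure D2:**
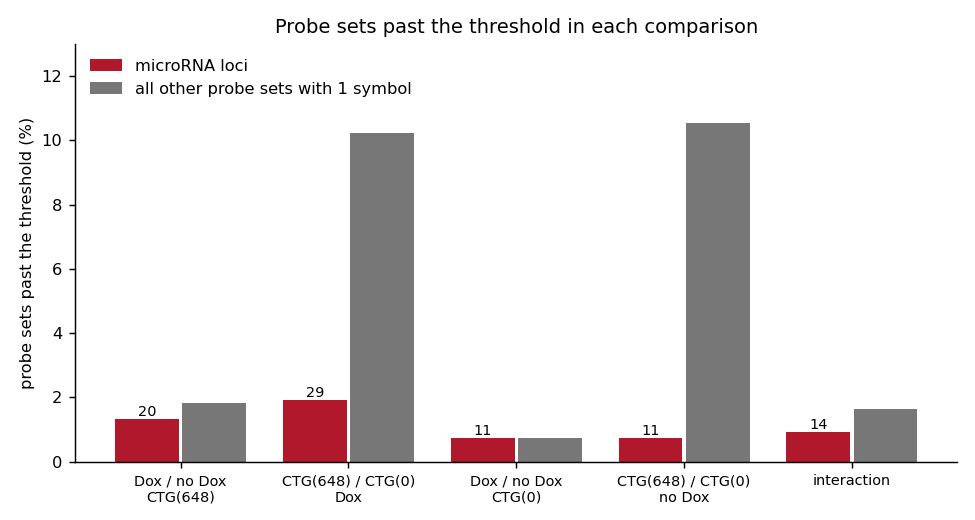
Share of probe sets past the threshold (%, y axis) for microRNA loci (red, with the number of loci above the bar) and all other probe sets with 1 symbol (grey) in the 5 comparisons. The bars of loci lie far below the grey ones in both comparisons between lines (29 and 11 loci) and close to them with Dox in CTG(0) cells.

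The median log2 fold change over the 1506 loci was -0.05 in contrast A and -0.03 in contrast B, where it was 0.01 in each over all probe sets.

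In both contrasts, and in the same direction, 12 loci passed after the removals, 8 higher and 4 lower in Dox-induced CTG(648) cells. Of all probe sets, 0.583% did so. The contrasts share the 3 arrays of Dox-induced CTG(648) cells, so that they are not independent. Of the 12 loci, 8 were above background in at least 1 group. Higher were MIR4288, MIR298, MIR222, MIR103A1, MIR103B1, MIR4275, MIR4262 and MIR569, and lower were MIR548X, MIR548G, MIR635 and MIR448.

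**Figure D3:**
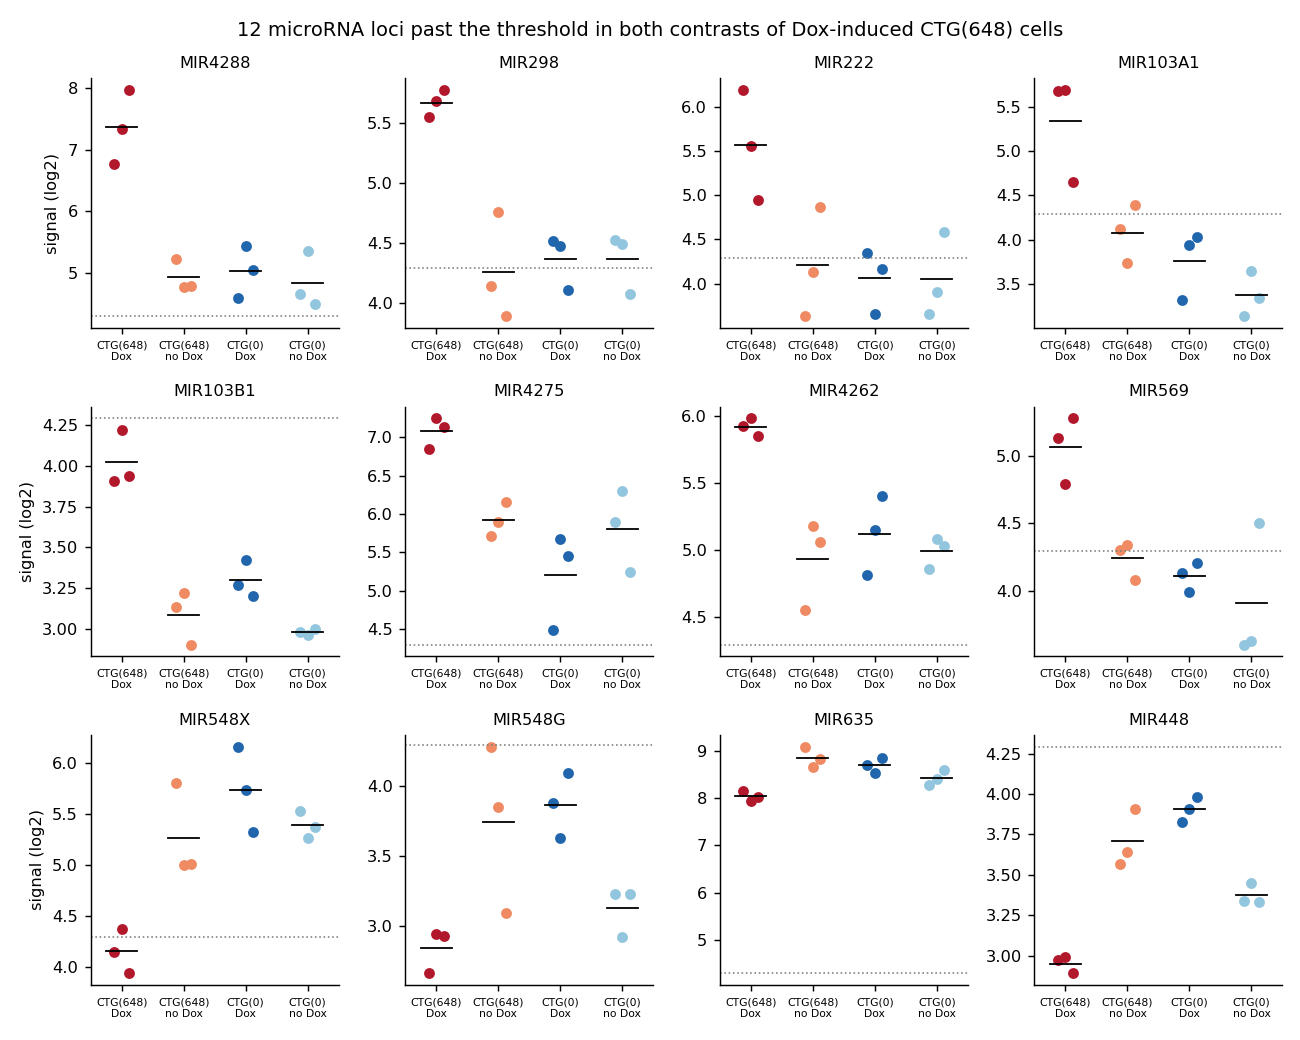
Signal (log2, y axis) of the 12 loci past the threshold in both contrasts, 1 panel per locus, with 1 point per array, 4 groups of 3 on the x axis and a bar at each group mean. The dotted line is the array median of about 4.3, and in all 12 panels the Dox-induced CTG(648) arrays lie apart from both comparison groups.

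MIR4288, on chromosome 8, showed the highest fold change among the loci. It had 6.77, 7.34 and 7.97 in Dox-induced CTG(648) cells, against 5.23, 4.77 and 4.78 in non-induced CTG(648) cells. It had 4.59, 5.43 and 5.05 in Dox-induced CTG(0) cells and 4.65, 5.35 and 4.49 in non-induced CTG(0) cells. Every Dox-induced CTG(648) array was above the other 9 arrays. The log2 fold change was 2.43 ± 0.32 (SE, n = 3 each) in contrast A (limma, adjusted p = 0.00274) and 2.34 ± 0.32 in contrast B (adjusted p = 0.00036). The gene lies within the interval of FZD3, a Wnt receptor gene, whose own values were 0.08 ± 0.17 in contrast A (limma, adjusted p = 0.949) and -1.01 in contrast B. Of the 14 other named probe sets within 600 kb on either side of MIR4288, 0 passed in contrast A by limma (1.8% of all probe sets did), with log2 fold changes from -0.22 to 0.55, and 4 passed in contrast B (9.87% of all), all lower, where MIR4288 was higher.

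MIR298 lies on chromosome 20 (58818226 to 58818313, minus strand), beside the imprinted GNAS gene. It had 5.55, 5.69 and 5.78 in Dox-induced CTG(648) cells, against 4.14, 4.76 and 3.89 in non-induced CTG(648) cells. The Dox-induced CTG(0) arrays had 4.52, 4.48 and 4.11, and the non-induced CTG(0) arrays 4.53, 4.49 and 4.08. MIR298 was thus above background only with Dox in CTG(648) cells, and no array of another group reached its lowest value there. The log2 fold change was 1.41 ± 0.23 in contrast A (limma, adjusted p = 0.0138) and 1.30 ± 0.23 in contrast B (adjusted p = 0.00245). Of 17 other named probe sets within 600 kb, 0 passed in contrast A by limma (1.8% of all probe sets did), with -0.18 for GNAS. In contrast B 3 of the 17 passed (9.87% of all), all higher, namely CTSZ (2.97), NPEPL1 (0.84) and EDN3 (0.67). CTSZ and NPEPL1 also passed between the non-induced lines (2.93 and 1.48), as did 10.1% of all probe sets. EDN3 had -0.07 there and MIR298 -0.10.

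MIR222 encodes a microRNA of the family of MIR221 and MIR222, which represses the cell cycle inhibitor gene CDKN1B. It lies on the X chromosome (45747015 to 45747124, minus strand) in the host transcript MIR222HG, with MIR221 at 0.858 kb. It had 6.19, 5.56 and 4.95 in Dox-induced CTG(648) cells, against 3.63, 4.13 and 4.87 in non-induced CTG(648) cells and 4.35, 3.66 and 4.17 in Dox-induced CTG(0) cells. The non-induced CTG(0) arrays had 3.66, 3.90 and 4.58. The groups did not overlap, although the nearest arrays of contrast A, with 4.95 and 4.87, lay close together. The log2 fold change was 1.36 ± 0.36 in contrast A (limma, adjusted p = 0.206) and 1.51 ± 0.36 in contrast B (adjusted p = 0.0174). MIR221, which has the same seed and the same host, averaged 7.33 in Dox-induced CTG(648) cells and 7.60 in non-induced CTG(648) cells. Its log2 fold change was -0.27 ± 0.47 for contrast A and 0.45 ± 0.47 for contrast B, and its difference from MIR222 was not tested. MIR222HG had 0.32 and 0.79, and none of these values passed the threshold. The contrast A call of MIR222 was lost in 4 of the 12 fits that left out 1 array each, where the log2 fold change ranged from 1.045 to 1.69. Those 4 fits left out replicate 1 or 2 of the CTG(648) cells with or without Dox.

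MIR103A1 and MIR103B1 occupy opposite strands of 1 stretch of chromosome 5 (168560896 to 168560973 and 168560904 to 168560965) and were both higher. MIR103A1 lies in an intron of PANK3, a pantothenate kinase gene, and its product represses DICER1. It had 5.68, 5.69 and 4.65 in Dox-induced CTG(648) cells, against 4.12, 3.74 and 4.39 in non-induced CTG(648) cells and 3.32, 3.94 and 4.03 in Dox-induced CTG(0) cells. In non-induced CTG(0) cells it had 3.14, 3.65 and 3.35. MIR103B1 had 3.91, 4.22 and 3.94 in Dox-induced CTG(648) cells, against 3.13, 3.22 and 2.90 in non-induced CTG(648) cells and 3.27, 3.42 and 3.20 in Dox-induced CTG(0) cells. The non-induced CTG(0) arrays had 2.98, 2.96 and 3.00. Whether the labelling keeps the strands apart was not tested. At both loci the Dox-induced CTG(648) arrays were the highest, although the signal of MIR103B1 stayed below the array median in every group.

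For MIR103A1 the log2 fold change was 1.26 ± 0.30 in contrast A (limma, adjusted p = 0.122) and 1.58 ± 0.30 in contrast B (adjusted p = 0.00371). For MIR103B1 it was 0.94 ± 0.17 (adjusted p = 0.0235) and 0.73 ± 0.17 (adjusted p = 0.0129). PANK3 did not pass, with -0.29 in contrast A and -0.16 in contrast B. The second copies did not pass either. MIR103A2, in an intron of PANK2 and with the same mature miR-103a-3p, had 4.64, 4.52 and 4.43 in Dox-induced CTG(648) cells, against 4.24, 4.88 and 4.10 in non-induced CTG(648) cells, and its log2 fold changes were 0.12 in contrast A and 0.16 in contrast B. MIR103B2 had 0.05 and -0.27, and MIR107, of the same family, had 0.22 and 0.31.

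MIR4275, on chromosome 4, had 6.85, 7.25 and 7.14 in Dox-induced CTG(648) cells, against 5.72, 5.90 and 6.16 in non-induced CTG(648) cells and 4.49, 5.67 and 5.45 in Dox-induced CTG(0) cells. In non-induced CTG(0) cells it had 5.89, 6.30 and 5.24. MIR4262, on chromosome 2, had 5.92, 5.98 and 5.85 in Dox-induced CTG(648) cells, against 4.55, 5.18 and 5.06 in non-induced CTG(648) cells and 4.81, 5.15 and 5.40 in Dox-induced CTG(0) cells. The non-induced CTG(0) arrays had 4.86, 5.08 and 5.03. At both loci every Dox-induced CTG(648) array lay above the arrays it was compared with. MIR4275 rose by 1.15 ± 0.31 in contrast A (limma, adjusted p = 0.212) and 1.88 ± 0.31 in contrast B (adjusted p = 0.00156), and MIR4262 by 0.99 ± 0.21 (adjusted p = 0.0666) and 0.80 ± 0.21 (adjusted p = 0.0252). Of the 7 loci with the seed of MIR4262, it alone passed. MIR181B1, a miR-181 locus, had -0.54 in contrast A and -0.76 in contrast B, without passing. MIR569, in an intron of the kinase gene TNIK, had 5.13, 4.79 and 5.28 in Dox-induced CTG(648) cells, against 4.30, 4.34 and 4.08 in non-induced CTG(648) cells and 4.13, 3.99 and 4.21 in Dox-induced CTG(0) cells. In non-induced CTG(0) cells it had 3.60, 3.63 and 4.50. Again the Dox-induced CTG(648) arrays were the highest. MIR569 rose by 0.83 ± 0.24 in contrast A (adjusted p = 0.253) and 0.96 ± 0.24 in contrast B (adjusted p = 0.0199), while TNIK had -0.01 and -0.11.

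Of the lower loci, MIR548X on chromosome 21 belongs to the large MIR548 family, whose copies derive from a transposable element. It had 4.15, 4.37 and 3.94 in Dox-induced CTG(648) cells, against 5.80, 5.00 and 5.01 in non-induced CTG(648) cells and 6.16, 5.74 and 5.32 in Dox-induced CTG(0) cells. The non-induced CTG(0) arrays had 5.53, 5.27 and 5.37. Its 3 lowest arrays were those of Dox-induced CTG(648) cells, with log2 fold changes of -1.12 ± 0.26 in contrast A (limma, adjusted p = 0.103) and -1.59 ± 0.26 in contrast B (adjusted p = 0.00128). MIR548G on chromosome 4 had 2.66, 2.94 and 2.93 in Dox-induced CTG(648) cells, against 4.28, 3.85 and 3.09 in non-induced CTG(648) cells and 3.88, 3.63 and 4.09 in Dox-induced CTG(0) cells. In non-induced CTG(0) cells it had 3.23, 2.92 and 3.23. Its log2 fold changes were -0.90 ± 0.26 (adjusted p = 0.263) and -1.02 ± 0.26 (adjusted p = 0.023). Its groups did not overlap. MIR548G stayed at background in all groups, and its contrast A call was lost in 10 of the 12 fits without 1 array. The other loci with the 5p seed, MIR548AJ2 and MIR548F1, had -0.47 and -0.13 in contrast A and did not pass. Probes for near-identical copies of the family cannot be told apart here.

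MIR635 lies in an intron of WIPI1, a gene of autophagosome formation, and was the brightest of the 12. It had 8.16, 7.95 and 8.02 in Dox-induced CTG(648) cells, against 9.09, 8.66 and 8.82 in non-induced CTG(648) cells and 8.70, 8.54 and 8.86 in Dox-induced CTG(0) cells. The non-induced CTG(0) arrays had 8.28, 8.40 and 8.59. It fell by 0.81 ± 0.18 in contrast A (limma, adjusted p = 0.0823) and by 0.66 ± 0.18 in contrast B (adjusted p = 0.0324). The groups of neither contrast overlapped, and WIPI1 fell as well, by 0.66 and 0.63. MIR448, in an intron of the serotonin receptor gene HTR2C, had 2.97, 2.99 and 2.89 in Dox-induced CTG(648) cells, against 3.57, 3.64 and 3.91 in non-induced CTG(648) cells and 3.83, 3.91 and 3.98 in Dox-induced CTG(0) cells. In non-induced CTG(0) cells it had 3.34, 3.45 and 3.33. All its values were below the array median. Its log2 fold changes were -0.76 ± 0.16 (adjusted p = 0.0688) and -0.96 ± 0.16 (adjusted p = 0.0016), while HTR2C had 0.03 and -0.01.

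In both contrasts, 5 of the 12 loci kept their calls in all 12 fits without 1 array: MIR103B1, MIR298, MIR4288, MIR448 and MIR548X. The contrast A call of MIR103A1 was lost without replicate 1 or 2 of Dox-induced or replicate 2 of non-induced CTG(648) cells (1.08 to 1.602 over the 12 fits), and that of MIR4275 without replicate 2 or 3 of Dox-induced or 1 or 2 of non-induced CTG(648) cells (1.05 to 1.27). For MIR569 it was lost in 8 fits, all but those without a non-induced CTG(0) array or Dox-induced CTG(648) replicate 2 (0.72 to 0.96). In contrast B the calls of MIR4262 and MIR635 were lost in 4 fits each (0.64 to 0.94 and -0.74 to -0.58), those of MIR569 and MIR548G in 3 each and that of MIR222 in 2, always without 1 of the Dox-induced arrays. MIR4310, whose seed overlaps that of miR-103a-3p, passed only in contrast B. It had 4.52, 3.81 and 3.89 in Dox-induced CTG(648) cells, against 3.40, 3.14 and 3.29 in non-induced CTG(648) cells and 3.37, 3.47 and 2.77 in Dox-induced CTG(0) cells. The non-induced CTG(0) arrays had 3.70, 3.07 and 3.27. The log2 fold changes were 0.80 ± 0.25 (limma, adjusted p = 0.313) and 0.87 ± 0.25 (adjusted p = 0.0422). The contrast B call was lost in 8 of the 12 fits (0.65 to 1.003). MIR4288, MIR222, MIR103A1, MIR103B1, MIR298, MIR4310 and MIR448 are the loci the study named from these same arrays, so their direction is no independent evidence. Of the 7, 6 passed in contrast A (5 higher, 1 lower) and 7 in contrast B (6 higher, 1 lower).

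Some markers of another cell type passed in both contrasts. Of 9 fibroblast and pericyte probe sets, all above background, 4 were lower in contrast A (ACTA2, COL1A1, PDGFRA and PDGFRB), where 0.838% of all were. In contrast B 5 were lower and 1, PDGFRA, higher (0.96), where 4.51% and 5.37% of all were. Between the non-induced lines 3 were lower, among them LUM (-7.04) and ACTA2 (-2.04), and PDGFRA was higher (2.04). There 5.19% of all probe sets were lower and 4.95% higher. Their mean per array was 9.86 to 9.95 in Dox-induced CTG(648) cells, 10.5 to 10.8 in non-induced CTG(648) cells, 11.6 to 12.2 in Dox-induced CTG(0) cells and 11.5 to 11.7 in non-induced CTG(0) cells. Their part in the values of the microRNA loci was not tested.

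Past the threshold in contrast A alone were 8 loci. MIR1261 on chromosome 11 had 4.26, 4.09 and 3.72 in Dox-induced CTG(648) cells, against 5.44, 5.00 and 5.17 in non-induced CTG(648) cells, a fall of 1.18 ± 0.23 (limma, adjusted p = 0.0404). With MIR4288, MIR298 and MIR103B1 it made up the 4 loci with an adjusted p under 0.05. MIR4719 rose by 1.15 and MIR4678 by 1.03. MIR184, a microRNA of lens and cornea whose seed is mutated in a familial keratoconus, rose by 0.97, and had 0.75 with Dox in CTG(0) cells, where it did not pass, and 0.01 in contrast B. MIR8079 rose by 0.85, MIR3117 by 0.80 together with its host SGIP1 (1.03), and MIR520A by 0.61, while MIR548Z fell by 0.75. SGIP1 and WIPI1 were the 2 hosts that passed the same way, of 6 loci past the threshold in contrast A with a measured host.

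In contrast B the loci that did not pass in contrast A included MIR4500, the let-7 seed microRNA, and MIR377 and MIR539 of the 14q32 cluster. MIR4500 had 4.82, 4.82 and 4.76 in Dox-induced CTG(648) cells, against 3.59, 3.15 and 2.71 in Dox-induced CTG(0) cells, a difference of 1.65 ± 0.31 (limma, adjusted p = 0.00359). Its host MIR4500HG was higher as well, by 1.46. MIR4500 was the only one of 9 loci with the let-7 seed that passed. Without Dox it had 5.20, 4.16 and 4.93 in CTG(648) cells and 3.49, 4.52 and 3.92 in CTG(0) cells, values that overlapped.

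Lower in contrast B was MIR6895, in the chromatin gene KDM5C on the X chromosome. It had 4.54, 5.42 and 5.34 in Dox-induced CTG(648) cells, against 6.87, 6.47 and 6.71 in Dox-induced CTG(0) cells, a log2 fold change of -1.58 ± 0.30 (limma, adjusted p = 0.00354), with -2.07 for KDM5C. Between the non-induced lines it had -1.30 and KDM5C -2.11, both past the threshold. MIR5087 and MIR6783 were the other 2 loci that passed between both pairs of lines, by -0.96 and -0.73 with Dox and by -1.01 and -1.17 without. Brighter loci that were lower in contrast B were MIR1184-3 (-1.19) and MIR1299 (-1.22), with group means of at least 9.26 in all groups. The remaining loci that passed in contrast B were MIR378H and MIR6855, higher by 1.00 and 0.67, and MIR1278, MIR7107, MIR6505, MIR548AR, MIR3942 and MIR23C, with log2 fold changes from -1.05 to -0.74.

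Without Dox, CTG(648) against CTG(0) cells gave 5 loci higher and 6 lower, 11 of 1506 or 0.730%, where 10.1% of all probe sets passed (4.95% higher and 5.19% lower). MIR361, on the X chromosome, had 4.87, 4.65 and 4.78 in non-induced CTG(648) cells, against 4.10, 3.86 and 3.69 in non-induced CTG(0) cells, and MIR4653 had 7.90, 8.83 and 8.71, against 9.75, 9.22 and 10.09. Neither pair of groups overlapped. MIR361 was higher by 0.88 ± 0.20 (limma, adjusted p = 0.013) and MIR4653 lower by 1.21 ± 0.26 (adjusted p = 0.00869). The other higher loci were MIR1587, MIR4483, MIR379 and MIR3198-1, by 0.71 to 0.93. The remaining lower loci, MIR7161 and MIR4737, had -0.96 and -0.80.

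The imprinted DLK1-DIO3 region on 14q32 holds a large microRNA cluster, expressed from the maternal chromosome as long transcripts. The stretch from MIR379 to MIR656 (chromosome 14, 101022066 to 101066801, plus strand) had 42 probe sets, 14 of them above background in at least 1 group. Between the non-induced lines 37 of the 42 had a log2 fold change above 0, with a median of 0.46, against a median of 0.05 over all microRNA loci and 0.00 over all probe sets. Between the Dox-induced lines 30 of 42 were above 0, with a median of 0.24. With Dox in CTG(648) cells the median was -0.10. The mean over the 42 loci was 4.54 to 4.85 per array in Dox-induced CTG(648) cells, 4.48 to 4.96 in non-induced CTG(648) cells, 4.26 to 4.42 in Dox-induced CTG(0) cells and 4.30 to 4.48 in non-induced CTG(0) cells. The lines therefore overlapped at the edge without Dox and did not overlap with it.

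Single loci of the cluster mostly stayed under the threshold. MIR379 passed between the non-induced lines, with 4.18, 3.67 and 4.37 in CTG(648) cells against 3.35, 2.96 and 3.32 in CTG(0) cells (0.86 ± 0.22, limma, adjusted p = 0.0199). MIR377 passed between the Dox-induced lines, with 5.43, 5.46 and 5.62 in CTG(648) cells against 3.94, 4.17 and 3.56 in CTG(0) cells (1.61 ± 0.33, limma, adjusted p = 0.00662), as did MIR539 (1.13). At an unadjusted p under 0.05 (limma) there were 11 of 42 loci between the non-induced lines and 8 between the Dox-induced lines. All of these were higher in CTG(648) cells. Of all probe sets 21.4% and 21.5% had such a p in either direction, and 10.1% and 11.3% had one and were higher. Of the 1506 microRNA loci 6.37% and 8.43% had such a p in either direction. Among the loci of the cluster under the threshold, picked after their values were seen, MIR889, MIR544A, MIR329-2 and MIR485 had log2 fold changes of 1.20, 1.20, 1.14 and 1.01 between the non-induced lines. Neighbouring loci share transcripts and are not independent. In the primate-specific cluster on chromosome 19 (MIR512-2 to MIR519A2), by contrast, 1 of 43 loci was above background and MIR520A alone passed, in contrast A.

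**Figure D4:**
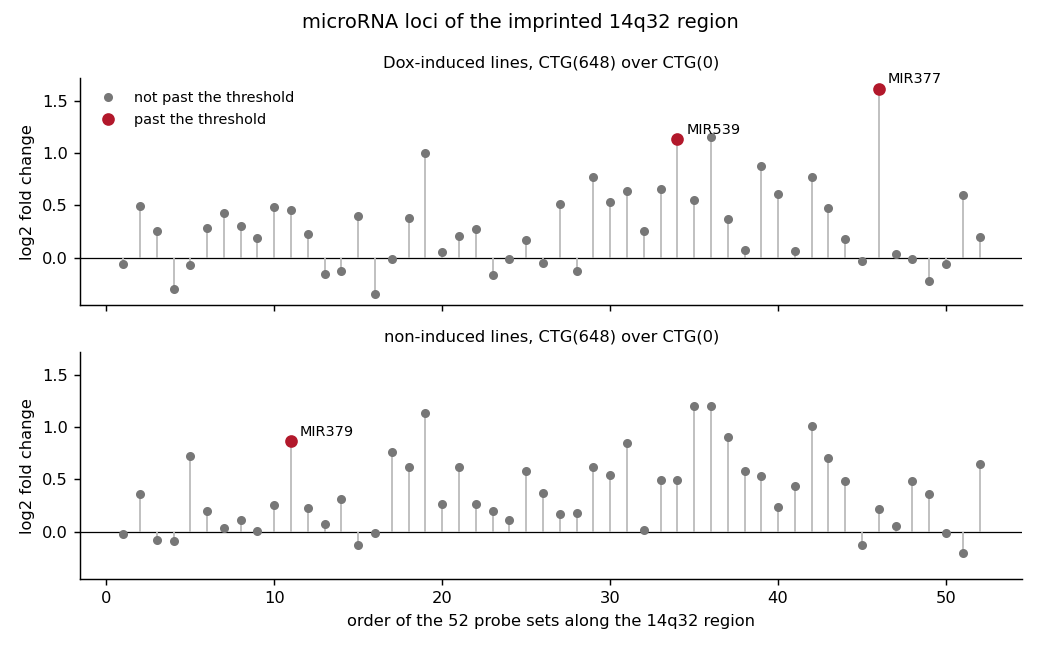
Log2 fold change, CTG(648) over CTG(0) (y axis), of the 52 probe sets for microRNA loci of 14q32 in chromosomal order (x axis, rank), for Dox-induced lines (top) and non-induced lines (bottom). Red points are past the threshold (MIR539 and MIR377 above, MIR379 below), and 37 of 52 points lie above 0 in the top panel and 44 of 52 in the bottom panel.

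Loci inside other genes could be set against their hosts. Of 1358 loci with a known strand, 733 lay within a gene of the same strand, 605 of them within a protein-coding gene, and 598 had 1 host with a named probe set, 522 hosts in all. In contrast B, 127 of the 598 pairs (110 different hosts) had a host past the threshold, and in 3 of them the locus passed the same way: MIR635 with WIPI1, MIR4500 with MIR4500HG and MIR6895 with KDM5C. Over those 127 pairs the median size of the log2 fold change was 0.23 at the locus and 0.99 at the host, with the same sign in 85. Between the non-induced lines, 154 pairs (133 different hosts) had a host past the threshold, and in 1 of them the locus passed the same way, with a median size of 0.17 at the locus and 1.00 at the host. Across pairs the log2 fold changes of locus and host correlated at r = 0.21 in contrast B, 0.19 between the non-induced lines and 0.09 in contrast A (n = 598, several loci sharing a host). Loci were above background in 31.5% of pairs with a host above background and in 26.2% of those with a host at background.

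**Figure D5:**
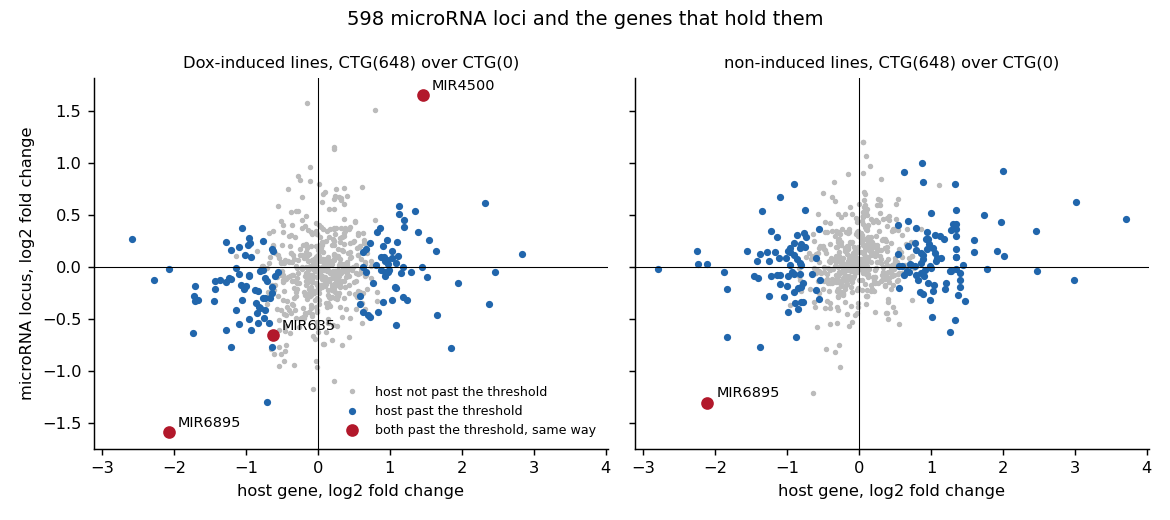
Log2 fold change, CTG(648) over CTG(0), of 598 microRNA loci (y axis) against that of the gene that holds them (x axis), for Dox-induced lines (left) and non-induced lines (right). Blue points have a host past the threshold and red points have host and locus past it in the same direction, which was so for 3 and 1 pairs, while most blue points lie near 0 on the y axis.

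Dox in CTG(0) cells addressed the response to the drug without a repeat. It took 9 loci higher and 2 lower, 11 of 1506 or 0.730%, where 0.749% of all probe sets passed (0.365% higher and 0.384% lower). By limma 0 loci had an adjusted p under 0.05, against 108 or 7.17% with an unadjusted p under 0.05 (6.23% of all probe sets). The methods' t-test, at the same limits of fold change and unadjusted p as the threshold, gave 6 loci. Of the 11 loci past the threshold, 1 was among those 6. MIR620 had 5.94, 4.19 and 5.40 in Dox-induced CTG(0) cells, against 3.67, 3.54 and 3.49 in non-induced CTG(0) cells, a rise of 1.61 ± 0.41 (limma, adjusted p = 0.626). MIR125B2, a copy of the lin-4 relative miR-125b, rose by 0.78, and its host MIR99AHG by 0.74. The other higher loci were MIR3119-2, MIR3145, MIR7852, MIR6505, MIR4301, MIR4483 and MIR4258, by 0.60 to 1.12, and MIR548T and MIR1912 were lower by 1.09 and 0.86. Only 1 of the 11 was above background in any group.

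The difference between the Dox responses of the lines, CTG(648) minus CTG(0), was tested as an interaction. There 3 loci were higher and 11 lower, 14 of 1506 or 0.930%, where 1.63% of all probe sets passed (0.749% higher and 0.876% lower). Of the 14, 7 passed in contrast A, 3 with Dox in CTG(0) cells and 4 in neither. MIR448 had -1.29 ± 0.23 and alone had an adjusted p under 0.05 (limma, adjusted p = 0.0319), where 0.312% of all probe sets had one. MIR4288 followed with 2.24 ± 0.45 (adjusted p = 0.0648) and MIR548G with -1.64 ± 0.37 (adjusted p = 0.126). All 11 lower loci had a negative fold change with Dox in CTG(648) cells and a positive one in CTG(0) cells. Choosing loci for a large negative difference favours these signs, so this is no further evidence.

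Lists of microRNAs with known roles were mostly at background and under the threshold. Of 8 let-7 family probe sets 2 were above background in some group, of 9 of the miR-17 to miR-92 clusters 1, of 9 with mesenchymal or fibroblast roles 3, and of 21 with roles in retina or neurons 3. None of the 6 muscle probe sets (such as MIR1-1), 6 epithelial ones (such as MIR200A) and 5 induced by p53 or hypoxia was above background, and of 5 of blood or liver 1 was. Within these 8 lists the threshold was passed 1 time in the 5 comparisons, by a retina and neural locus (MIR125B2) with Dox in CTG(0) cells. Of 15 probe sets with roles in immunity, MIR222 was higher and MIR448 lower in each of contrasts A and B, and MIR125B2 was higher with Dox in CTG(0) cells. Of all probe sets 1.8% passed in contrast A, 9.87% in contrast B and 0.749% with Dox in CTG(0) cells. MIR222 and MIR448 are among the loci the study named from these same arrays, so they are no independent evidence. In a list of 8 probe sets drawn up around miR-103 and miR-107, MIR103A1 and MIR103B1, both also named by the study, passed in both contrasts. By seed, 3 loci (MIR103A1, MIR103A2 and MIR107) had that of miR-103a-3p and 2 (MIR103B1 and MIR103B2) that of miR-103b. Among the named loci of these lists, MIR16-2 had 1.20 and MIR25 -0.76 in contrast A, neither past the threshold.

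The genes that make and use microRNAs were mostly above background. Of 31 probe sets for genes of processing and silencing, 27 were above background, and 0 passed in contrast A, 0 with Dox in CTG(0) cells and 0 in the interaction (limma), where 1.8%, 0.749% and 1.63% of all probe sets passed. Between the Dox-induced lines 1 was higher and 4 lower, where 9.87% of all probe sets passed. DROSHA, the nuclear ribonuclease, averaged 11.5 in Dox-induced CTG(648) cells and 12.1 in Dox-induced CTG(0) cells (-0.58 ± 0.17, limma, adjusted p = 0.0446). The Argonaute gene AGO1 (-0.56) and the helicase genes DDX17 (-0.67) and MOV10 (-0.98) were lower too, and PRKRA, a partner of DICER1, was higher (0.68). DICER1 itself had -0.66 (limma, adjusted p = 0.113) and AGO2 -0.50 (adjusted p = 0.248). Without Dox, CTG(648) against CTG(0) cells gave -0.39 for DROSHA, -0.41 for AGO1, -0.31 for DDX17, -0.44 for MOV10 and 0.46 for PRKRA. These had the same signs as with Dox, and none passed. Between the non-induced lines 2 of the 31 were lower, the export factors XPO5 and RAN (-0.81 and -0.77), and 1 higher, the editing enzyme gene ADARB1 (1.22). There 10.1% of all probe sets passed, so that this count was near that of all probe sets. MBNL1, the splicing factor that binds CUG repeats, had 0.27 in contrast A and -0.08 in contrast B and did not pass.

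Of 29 probe sets for microRNA host transcripts, 11 were above background. MIR181A1HG averaged 6.93 in Dox-induced CTG(648) cells, 7.48 in non-induced CTG(648) cells, 8.14 in Dox-induced CTG(0) cells and 7.09 in non-induced CTG(0) cells. It rose by 1.05 with Dox in CTG(0) cells, and the difference of the Dox responses was -1.60 (limma, adjusted p = 0.0574). MIR663AHG was lower in contrast A, averaging 3.71 in Dox-induced CTG(648) cells and 4.70 in non-induced CTG(648) cells, and alone passed there (1.8% of all probe sets did). In contrast B MIR4500HG was higher (1.46), and MIR181A1HG (-1.21) and MIR548XHG (-1.19) were lower, where 9.87% of all probe sets passed. MIR548XHG also differed between the non-induced lines (-0.94), as did MIR4435-2HG (-0.83), where 10.1% of all probe sets passed.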

How the data were processed

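Total RNA of 12 cultures was measured on Clariom D Human arrays, 1 array per sample. The deposited values were log2 signals with 2 decimals, which per the methods and the submitters' processing notes the authors made by RMA background correction and quantile normalization on hg38 annotation. No further normalization was applied. Such normalization sets all arrays to 1 distribution, so that a change shared by most probe sets is not seen, and the number of arrays limits the precision.

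All 135750 probe sets were fitted in R 4.3.3 with limma 3.58.1 (1 mean per group, empirical Bayes), with Benjamini-Hochberg adjustment over the 36176 with exactly 1 symbol. The threshold was a log2 fold change over 0.5 in size and p under 0.005. The labels call the 3 samples of a group biological replicates, and p-values measure the spread between them only. The fit was tested on simulated data.

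Members and lists were chosen with earlier results of these data known. Named were the brightest loci, those with the largest changes past the threshold, those of the lists and those the study named, with hosts. Alternatives covered filters, thresholds, normalization, array weights, a replicate block and each array left out.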

Additional observations from a re-analysis of the deposited data

Results flagged for a closer look

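By the interaction test in limma, the difference between the Dox responses of the CTG(648) and CTG(0) lines was past the threshold at 14 microRNA loci and 1 host transcript. The 14 were 0.930% of the loci, where 1.63% of all probe sets passed. Of the 14, 6 were above background in at least 1 group. The difference of the log2 fold changes was 2.24 for MIR4288 (2.43 in CTG(648) and 0.19 in CTG(0) cells), 1.76 for MIR4275 (1.15 and -0.61) and 1.41 for MIR298 (1.41 and 0.00), the 3 loci with the higher response in CTG(648) cells. It was -2.09 for MIR620 (-0.48 in CTG(648) and 1.61 in CTG(0) cells), -1.64 for MIR548G (-0.90 and 0.74), -1.51 for MIR3119-2 (-0.39 and 1.12) and -1.47 for both MIR548X (-1.12 and 0.35) and MIR1278 (-0.48 and 0.99). It was -1.29 for MIR448 (-0.76 and 0.53), -1.28 for MIR7852 (-0.32 and 0.96), -1.13 for MIR7107 (-0.46 and 0.67) and -1.12 for MIR3152 (-0.64 and 0.47). The smallest were -1.09 for MIR635 (-0.81 and 0.28) and -0.96 for MIR3942 (-0.36 and 0.60). The host transcript MIR181A1HG had -1.60 (-0.55 and 1.05). MIR448 had an adjusted p of 0.0319 (limma), and the others were from 0.0574 to 0.298.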

How the results depend on the processing

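No value reversed. With the stricter fold limit of 1, 9 loci passed in contrast A (20 before, also after removal), 14 in contrast B (29 before), 13 in contrast B after removal (26 before), 4 between the non-induced lines (11 before) and 3 with Dox in CTG(0) cells (11 before). With adjusted p under 0.05 there were 4 in contrast A, before and after removal, 1 in the interaction (14 before) and 0 with Dox in CTG(0) cells by limma (108 at an unadjusted p under 0.05). Testing only probe sets at least 1 above the array median gave 10 in contrast A, 16 in B, 14 in B after removal, 7 between the non-induced lines, 6 in the interaction and 1 with Dox in CTG(0) cells. A mean of at least 5 gave 13 in contrast A, 16 in B after removal, 7 between the non-induced lines, 7 in the interaction and 4 with Dox in CTG(0) cells. These filters test fewer loci. The methods' t-test gave 8 in contrast A, 7 after removal, 15 in contrast B before and after removal, 3 between the non-induced lines and 6 with Dox in CTG(0) cells. Array weights gave 17 between the non-induced lines. Median centring gave 2 host or processing probe sets in contrast A (1 before). A fit of 1-symbol probe sets only gave 17 loci between the non-induced lines and 17 with Dox in CTG(0) cells. That fit and those without the 44 loci of uncertain placement or without MIR548 loci were chosen after seeing the data. The causes were not tested.

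Replicate numbers did not pair the samples, since same-numbered arrays correlated at -0.0781 to 0.0727 over 18 pairs. A replicate block gave 7 loci with Dox in CTG(0) cells.

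Leaving out each array gave 14 to 20 loci in contrast A, 21 to 33 in B, 15 to 32 in B after removal (15 without Dox-induced CTG(648) replicate 1), 9 to 25 between the non-induced lines (25 without non-induced CTG(648) replicate 1), 9 to 17 in the interaction (9 without non-induced CTG(0) replicate 3) and 3 to 13 with Dox in CTG(0) cells (3 without non-induced CTG(0) replicate 3 and 6 without Dox-induced CTG(0) replicate 1). Host and processing probe sets numbered 0 to 2 in contrast A, 4 to 8 in B, 4 to 7 between the non-induced lines, 1 to 2 in the interaction and 1 to 2 with Dox in CTG(0) cells. Of 67 named calls, 29 were kept without each array in turn.

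The share of loci above background was, for CTG(648) with Dox, CTG(648) without, CTG(0) with Dox and CTG(0) without, 35.13%, 35.52%, 34.59% and 34.53% at 0.5 above the array median, 11.29%, 11.89%, 11.22% and 11.29% at 2 above it, and 30.08%, 30.35%, 30.54% and 28.88% at a mean of 5. Without each array it was 24.7% to 25.23%, 25.3% to 25.56%, 24.7% to 25.23% and 24.37% to 24.5%. The brightest probe set per symbol gave 24.63% in non-induced CTG(648) and 23.61% in non-induced CTG(0) cells, and renewed quantile normalization 23.64% in the last group.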

Other observations

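The widest spread among the loci was at MIR548AI, picked after its values were seen and placed by the array on another chromosome than the RefSeq gene. It had 8.21, 5.99 and 7.92 in Dox-induced CTG(648) cells, 10.10, 9.46 and 7.33 in non-induced CTG(648) cells, 9.45, 3.02 and 7.75 in Dox-induced CTG(0) cells and 9.44, 8.81 and 10.85 in non-induced CTG(0) cells. It passed the threshold in none of the 5 comparisons. The 76 probe sets of the MIR548 family, a group also chosen after values were seen, held 40 above background. In each of contrasts A and B, 3 of them were lower and 0 higher by limma, where 0.838% of all probe sets were lower in contrast A and 4.51% in contrast B.

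Probe sets for 1 symbol could differ in level. MIR4454 had 9 probe sets with means from 2.95 to 10.55. In 11 sets of probe sets, 27 members with 17 symbols shared all 12 values, so that these copies are not separate measurements. For 28 probe sets the array placed the locus elsewhere than on the RefSeq chromosome of the gene, or on none, and 16 more matched RefSeq by symbol only. Of these 44, 23 were above background, and 0 passed the threshold by limma in any comparison.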
